A study of Mus musculus with 16 samples.

Results

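The proteasome is the barrel-shaped protease that degrades ubiquitin-tagged proteins, and its subunits and their close helpers carry gene symbols that begin with Psm. Members were taken as every row of the deposited count table whose symbol was Psm, a letter from a to g, a number and at most 1 further letter, which gave 49 of 41079 genes. They comprised 14 constitutive core subunits, 3 immunoproteasome core subunits (Psmb8, Psmb9 and Psmb10), 2 core subunits restricted to other tissues (Psma8 and Psmb11), 17 subunits of the regulatory particle, 7 assembly factors, and 6 other activators and inhibitors. All but Psmb11 passed the filter on low counts, so 48 were tested among 16742 genes. The comparison asked whether the mRNA of these genes differed between livers with and without the hepatocyte glucagon receptor, in each sex.

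Poly(A)-selected RNA was sequenced from whole liver of 16 mice aged 20 to 22 months on a C57BL/6J background, 4 in each combination of sex and genotype. All mice, controls included, carried loxP-flanked (floxed) alleles of Gcgr, the glucagon receptor gene. LKO mice also carried an Albumin-Cre transgene, which is active in hepatocytes and deletes several Gcgr exons there, and CRE- mice lacked the transgene, so that Cre itself also separates the groups. Whether all other liver cells keep an intact allele was not tested. Library totals ran from 33268424 to 56488920 counts. Levels are given in CPM, which are counts brought to a common library total after TMM scaling, in the order of replicates 1 to 4. Levels of different genes are compared only in RPKM, which are CPM for each 1000 bases of annotated exon.

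The core particle of the proteasome is a stack of rings, with Psma subunits in the outer rings that gate the entrance and Psmb subunits in the inner rings that hold the active sites. The regulatory particle caps the core: its Psmc ATPases unfold the substrate and thread it inward, while its Psmd subunits bind and remove ubiquitin. Interferon gamma leads cells to build Psmb8, Psmb9 and Psmb10 in place of the constitutive catalytic subunits Psmb5, Psmb6 and Psmb7, giving the immunoproteasome, whose cut peptides suit presentation on class I major histocompatibility molecules. Leukocytes carry it at rest, whereas hepatocytes carry mainly the constitutive form. In liver the proteasome turns over short-lived regulators and misfolded secretory proteins.

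Gcgr itself was at 190.4, 193, 127 and 189.6 CPM in male CRE-, 117, 136, 129.9 and 160.3 in male LKO, 162, 208, 201 and 180.0 in female CRE- and 48.8, 132, 119 and 93.6 in female LKO mice. All 4 female LKO libraries lay below all female CRE- libraries, but in males the library of CRE- replicate 3 lay among the LKO libraries. Whether the label of that library is right was not tested. The log2 fold change of Gcgr was -0.93 ± 0.25 (SE) in females (edgeR adjusted p = 0.044) and -0.37 ± 0.24 in males (adjusted p = 0.67). With both libraries described next left out, it was -0.69 in females (edgeR adjusted p = 0.037) and -0.50 in males (adjusted p = 0.23). The female call was close to the threshold: it was lost when any library was left out alone except male CRE- replicate 2, male CRE- replicate 3 or female LKO replicate 2, with adjusted p from 0.023 to 0.14. It was also lost with each sex fitted alone (edgeR adjusted p = 0.13), upper-quartile scaling (0.071), no filter on low counts (0.054) and at least 10 counts in every library (0.051), and kept with RLE scaling (0.049), the replicate block (0.027), the length trend removed (0.022), both of these (0.0092), DESeq2 (0.0082) and limma-voom (0.0086). The count covers the whole gene, undeleted exons and other cell types included, and so is not a measure of the share of hepatocytes that lost the receptor.

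A pair of libraries stood apart in the level of short genes. In male CRE- replicate 3 and female LKO replicate 1, genes under 1000 bases had a median deviation from the mean of all libraries of -0.94 and -0.77 on the log2 scale, genes from 1000 to under 2000 bases one of -0.59 and -0.38, and genes of 4000 bases or more one of 0.38 and 0.30. The other 14 libraries lay between -0.031 and 0.35 for genes under 1000 bases and between -0.12 and 0.29 for those from 1000 to under 2000. Of the 48 subunits, 9 are under 1000 bases in annotated exon length, 27 from 1000 to under 2000, 10 from 2000 to under 4000 and 2 longer. Male CRE- replicate 3 held the lowest value of all 16 libraries for 34 of the 48 subunits, and female LKO replicate 1 the lowest of its group for 32. Female CRE- replicate 4 held the highest value of all 16 for 31. Because the low libraries fall in opposite genotypes of the sexes, for the subunits low in them LKO over CRE- is raised by the former in males and lowered by the latter in females. LKO over CRE- log2 fold changes of subunits are therefore also given with both left out, a setting chosen after seeing the data. Ratios of subunits and counts of subunits without overlap between groups are given with all 16 libraries only. RNA quality was not analysed here, and what set these libraries apart was not tested.

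**Figure D1:**
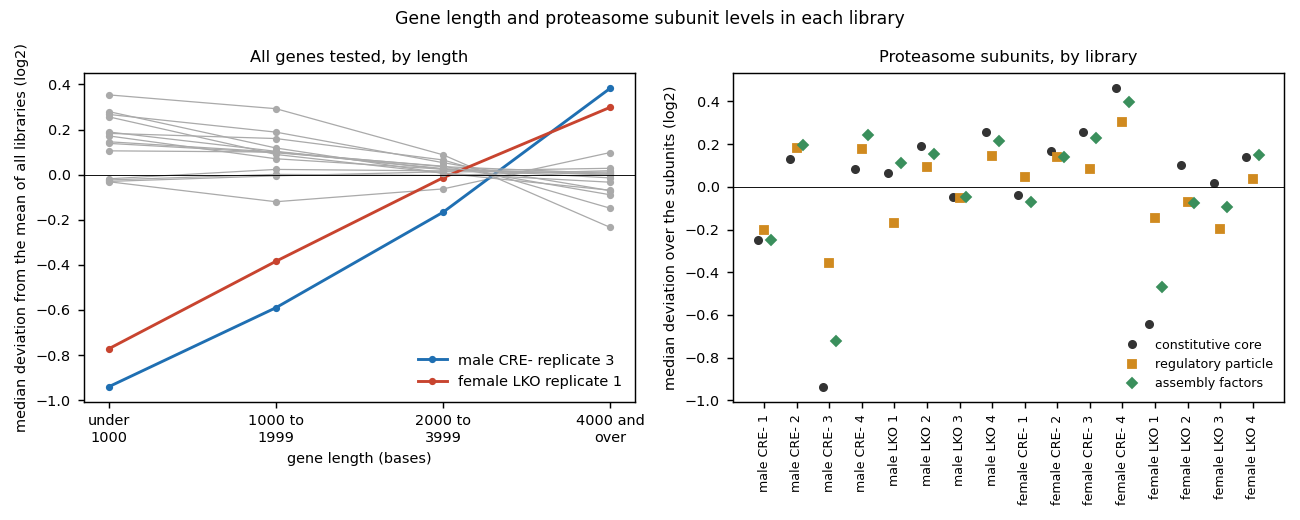
Left, the median deviation of each library from the mean of all 16 (log2) for all tested genes in 4 classes of length in bases, with the 2 libraries that stood apart in color and the other 14 in grey; right, the median deviation of the constitutive core (14 genes), regulatory particle (17) and assembly factor (7) mRNAs in each library. The colored lines run from -0.94 and -0.77 for short genes to 0.38 and 0.30 for long ones, and the constitutive core is lowest in the same 2 libraries.

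Per length, the constitutive core subunits were the most abundant group and the assembly factors among the least. Mean levels over the 16 livers ran from 42.4 ± 9.20 (SD) RPKM for Psma3 to 105 ± 20.01 for Psma4 among the Psma ring subunits, and from 61.6 ± 13.2 for Psmb2 to 150.4 ± 36.00 for Psmb4 among the constitutive Psmb subunits. Psma3 has the longest annotated exon length of the constitutive ring subunits, which lowers its value on this scale. In the regulatory particle the range was 37.5 ± 5.43 (Psmc6) to 82.1 ± 9.43 RPKM (Psmc1) for the ATPases and 28.3 ± 5.16 (Psmd14) to 75.7 ± 18.5 (Psmd8) for the other subunits. Ring subunits, which the particle holds in equal number, thus differed in mRNA by up to several fold. The immunoproteasome subunits were at 49.4 ± 18.3 RPKM for Psmb8, 40.2 ± 11.2 for Psmb10 and 20.02 ± 8.76 for Psmb9. Psme1 and Psme2, which form the interferon-inducible PA28 cap, stood with the core at 136 ± 37.02 and 99.5 ± 23.4 RPKM. The alternative caps Psme3 and Psme4 had 13.2 ± 1.79 and 11.9 ± 2.69, and Psmf1, which encodes the core-binding protein PI31, 7.49 ± 0.945. Assembly factors ran from 8.49 ± 1.43 RPKM for Psmg2 to 18.8 ± 3.68 for Psmg1, while Psma8, the testis form of a Psma subunit, had 0.485 ± 0.255. Psmb11, the catalytic subunit of thymic epithelium, had 0 counts in all 16 libraries.

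In LKO against CRE- livers no proteasome subunit passed the threshold in either sex with edgeR. In males edgeR called 0 of 48 subunits at an adjusted p under 0.05, where 0.454% of all tested genes were called, and DESeq2 and limma-voom with sample weights also called 0, against 2.03% and 0.884% of all genes. At an unadjusted p under 0.05, subunits higher in male LKO numbered 0 and lower ones 0, against 4.79% and 4.74% of all genes. In females edgeR called 0 subunits, where 4.24% of all genes were called, DESeq2 again called 0 (10.8% of all genes) and limma-voom 1, Psmd5 (11.8% of all genes). At an unadjusted p under 0.05, 0 subunits were higher in female LKO (12.3% of all genes) and 2 lower, Psmd5 and Psmg1 (9.14% of all genes). Single libraries moved these counts. Subunits at that unadjusted level in either direction in males numbered 4 without CRE- replicate 2, where 11.2% of all genes were, and 1 without CRE- replicate 3 or 4 (6.62% and 12.6% of all genes). In females there were 5 without male CRE- replicate 3 or female LKO replicate 4 (23.1% and 20.5%) and 1 without female CRE- replicate 4 or female LKO replicate 1 (19.1% and 15.6%). Other settings moved them as well. In females the number was 6 with the replicate number as a block (23.3% of all genes), 9 with the length trend removed (24.6%), 10 with both (26.6%) and 10 by limma-voom (27.6%), and in males 1, 1, 2 and 4 (10.5%, 9.55%, 10.3% and 13.5%).

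Across the transcriptome edgeR called 76 genes in males and 710 in females, and the latter number was 361 with both libraries left out. It was 385, 87, 122 and 110 without female CRE- replicates 1 to 4 in turn, 237, 1310 and 404 without female LKO replicates 1, 2 and 4, and 428 and 427 without male LKO replicates 2 and 4. The male number was 50 without female CRE- replicate 2, and between 26 and 49 without each male library in turn. The shares of all genes beside the subunit counts are thus a rough scale.

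With all 16 libraries, the subunits leaned upward in male and downward in female LKO livers. Subunits vary together, so the sign counts are not of independent observations. In males 39 of 48 had a positive log2 fold change, against 49.1% of all genes. The median of the 48 was 0.19, against -0.0078 over all genes. In females 42 of 48 had a negative log2 fold change, where 53.1% of all genes had a positive one. The median was -0.25, against 0.035 over all genes. With both libraries left out, the medians were 0.023 in males, where 28 of 48 were positive, and -0.14 in females, where 39 were negative. Over all genes 50.6% in males and 52.0% in females were then positive. Leaving out male CRE- replicate 3 alone was enough to bring the male median to 0.018. In females the median was -0.14 without LKO replicate 1 and -0.13 without CRE- replicate 4.

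The test of whether the LKO effect differed between sexes called 0 subunits by edgeR, 0 by DESeq2 and 0 by limma-voom, where these tools called 0%, 2.22% and 0.173% of all genes. At an unadjusted p under 0.05, 0 subunits had a female effect above the male one (9.28% of all genes) and 5 a female effect below it (6.68% of all genes), namely Psma3, Psma4, Psmc6, Psmd11 and Psmd5. With both libraries left out 1 of 48 was at that level, against 10.9% of all genes. Leaving out single libraries gave from 2, as without male CRE- replicate 3 or female LKO replicate 1 (12.6% and 11.1% of all genes), to 14, without male CRE- replicate 4 (17%). The number was 15 with the replicate block (18.6% of all genes), 9 with the block and the length trend removed (19.8%) and 12 by limma-voom (21.8%). Over the 48 the median female effect minus male effect was -0.41, and -0.16 with both libraries left out.

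Hepatocyte markers are given beside the subunits, with 8 of 8 listed genes in the table and Alb the most abundant per length. Their summed level, to which abundant genes add the most, was 74534, 100878, 115340.0 and 100534 CPM in male CRE-, 68236, 79002, 97084 and 80429 in male LKO, 124659, 116305, 121409 and 136813 in female CRE- and 61208, 95769, 93563 and 74581 in female LKO mice. The sums of female LKO livers lay below those of all female CRE- livers, with the lowest in LKO replicate 1, while the male groups overlapped. In edgeR 0 of the 8 markers passed the adjusted threshold in either sex. At an unadjusted p under 0.05, 3 were lower in females (9.14% of all genes) and 1 in males (4.74%). In females DESeq2 called 2 lower and limma-voom 1, where they called 10.8% and 11.8% of all genes in either direction. No marker was at 0 in all livers. In whole tissue, fewer hepatocytes and less RNA per hepatocyte cannot be told apart, and the part of either in the subunit values was not tested.

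**Figure D2:**
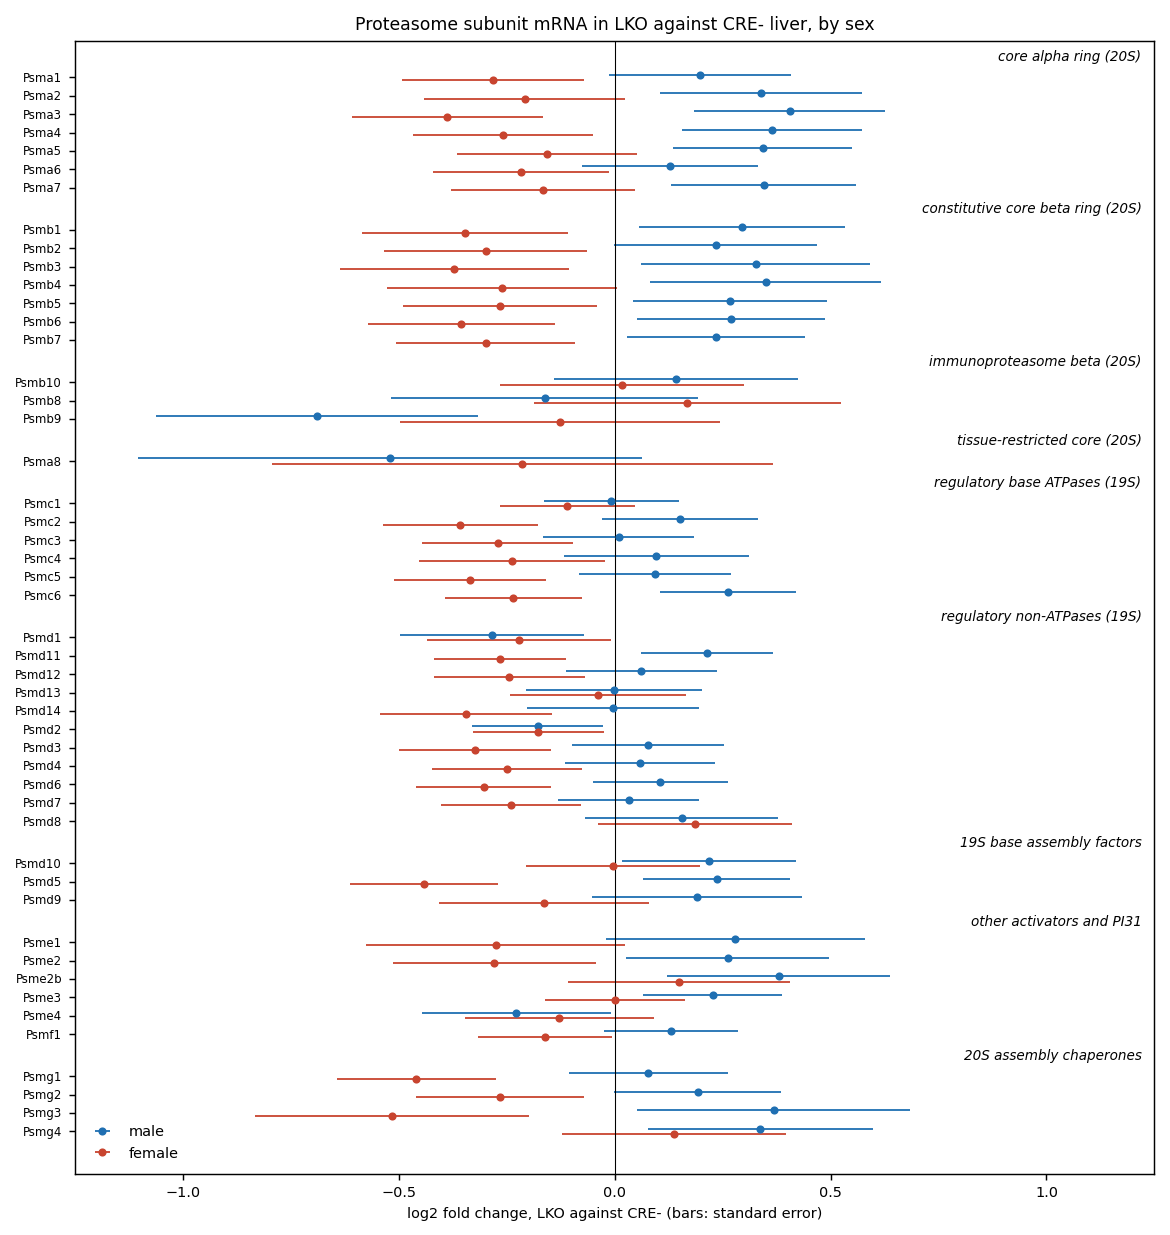
Log2 fold change of LKO over CRE- liver for each of the 48 tested proteasome genes, grouped by role, with males in blue and females in red and bars for the standard error from edgeR. All 14 constitutive core subunits lie right of 0 in males and left of 0 in females, and no gene passed an adjusted p of 0.05.

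Among constitutive core subunits the direction was uniform within each sex. All 14 had a positive log2 fold change in males, with a median of 0.31, and all 14 a negative one in females, with a median of -0.27. With both libraries left out the medians were 0.11 and -0.10, with 13 of 14 positive in males and 14 of 14 negative in females. These mRNAs vary together from liver to liver, so the number that share a sign does not count independent observations.

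Psma3, a subunit of the outer ring, was at 110.2, 149.7, 68.9 and 139 CPM in male CRE-, 138, 174, 143 and 165 in male LKO, 139, 165, 172 and 177 in female CRE- and 87.9, 148, 139 and 124 in female LKO mice. The libraries of male CRE- replicate 3 and female LKO replicate 1 were below the rest, and the groups overlapped in both sexes. Its log2 fold change, that with the smallest p among Psma subunits in both sexes, was 0.40 ± 0.22 (SE) in males (edgeR adjusted p = 0.59) and -0.39 ± 0.22 in females (adjusted p = 0.33), and 0.21 and -0.23 with both libraries left out. Psma4, another outer ring subunit and the most abundant of them per length, was at 119, 142, 76.3 and 132 CPM in male CRE-, 145, 164, 142 and 153 in male LKO, 131, 147, 157 and 122 in female CRE- and 75.6, 134, 137 and 119.9 in female LKO mice. All male LKO values lay above all male CRE- values, by a margin of less than 1 CPM between LKO replicate 3 and CRE- replicate 2, and female values overlapped. Psma4 log2 fold change was 0.36 ± 0.21 (SE) in males (edgeR adjusted p = 0.61) and -0.26 ± 0.21 in females (adjusted p = 0.52), and 0.20 and -0.075 with both libraries left out. It was the only 1 of 48 subunits whose male LKO values all exceeded the CRE- values (3.57% of all genes), and 0 lay wholly below (2.92% of all genes).

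Of the inner ring, Psmb4, a non-catalytic subunit and the most abundant core mRNA per length, was at 112, 155, 63.4 and 151 CPM in male CRE-, 163, 155, 131 and 165 in male LKO, 135, 154, 159 and 199.7 in female CRE- and 77.5, 158, 137 and 168 in female LKO mice. The lowest values were again those of the libraries that stood apart, female CRE- replicate 4 was the highest, and the groups overlapped. Psmb4 log2 fold change was 0.35 ± 0.27 (SE) in males (edgeR adjusted p = 0.71) and -0.26 ± 0.27 in females (adjusted p = 0.62), and 0.13 and -0.049 with both libraries left out. Psmb6, which carries the caspase-like activity, was at 97.4, 132, 65.8 and 119.8 CPM in male CRE-, 114, 132, 114 and 141 in male LKO, 115, 132, 143 and 187 in female CRE- and 86.2, 138, 113 and 114 in female LKO mice. The highest liver was again female CRE- replicate 4, and the groups overlapped in both sexes. For Psmb6 the log2 fold change was 0.27 ± 0.22 (SE) in males (edgeR adjusted p = 0.73) and -0.35 ± 0.22 in females (adjusted p = 0.37), and 0.094 and -0.23 with both libraries left out. Psmb2, a non-catalytic subunit with the lowest level per length among the constitutive Psmb subunits, was at 46.8, 51.2, 24.8 and 55.6 CPM in male CRE-, 48.6, 55.5, 47.2 and 58.5 in male LKO, 47.8, 57.6, 54.9 and 69.9 in female CRE- and 29.1, 51.1, 55.3 and 51.7 in female LKO mice. The female LKO livers other than replicate 1 fell within the CRE- range, and males overlapped. Psmb2 log2 fold change was 0.23 ± 0.24 (SE) in males (edgeR adjusted p = 0.79) and -0.30 ± 0.24 in females (adjusted p = 0.51), and 0.024 and -0.11 with both libraries left out.

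In the regulatory particle the female lean was the steadier. Of 17 subunits, 16 had a negative log2 fold change in females, with a median of -0.24, and -0.21 with both libraries left out. In males 12 of 17 were positive with a median of 0.062, which turned to -0.076 with both libraries left out and -0.10 with the length trend removed. Psmc5, Psmd6 and Psmd7 were 3 of the 5 subunits whose female LKO values all lay below the CRE- values, with Psmg1 and Psmg3, a share to be read against 6.42% of all genes. In the other direction there were 0 (5.2% of all genes). The values of Psmc5, Psmd7 and Psmg3 were singled out after being seen.

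Psmc6, an ATPase of the base and its least abundant per length, was at 79.1, 90.98, 64.6 and 80.9 CPM in male CRE-, 99.8, 100.4, 87.6 and 90.8 in male LKO, 98.2, 111, 106 and 72.7 in female CRE- and 71.6, 88.5, 83.2 and 85.8 in female LKO mice. Male LKO values exceeded all CRE- values except that of replicate 2, which 2 of them exceeded, and in females CRE- replicate 4 lay among the LKO livers. Psmc6 log2 fold change was 0.26 ± 0.16 (SE) in males (edgeR adjusted p = 0.63) and -0.23 ± 0.16 in females (adjusted p = 0.43), and 0.17 and -0.15 with both libraries left out. Psmc2, another ATPase of the base, was at 71.5, 88.7, 51.1 and 96.3 CPM in male CRE-, 76.6, 87.9, 84.3 and 92.9 in male LKO, 94.02, 94.7, 87.2 and 108 in female CRE- and 66.2, 71.8, 72.4 and 88.98 in female LKO mice. In females LKO replicate 4 alone reached the CRE- range, and males overlapped. Psmc2 log2 fold change was 0.15 ± 0.18 (SE) in males (edgeR adjusted p = 0.82) and -0.36 ± 0.18 in females (adjusted p = 0.26), and -0.012 and -0.28 with both libraries left out. Psmc1, the most abundant ATPase per length, was at 95.7, 139, 105 and 143 CPM in male CRE-, 121, 123, 114 and 123 in male LKO, 121, 127, 125 and 151 in female CRE- and 134, 109, 114 and 128 in female LKO mice. The groups overlapped in both sexes. Psmc1 log2 fold change was -0.0076 ± 0.16 (SE) in males (edgeR adjusted p = 0.996) and -0.11 ± 0.16 in females (adjusted p = 0.74), and -0.077 and -0.14 with both libraries left out.

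Psmd11, a scaffold of the lid, was at 103, 119, 92.4 and 116 CPM in male CRE-, 105, 116, 146 and 131 in male LKO, 120.2, 151, 125 and 139 in female CRE- and 106, 123, 97.95 and 118 in female LKO mice. Male LKO replicates 3 and 4 were the highest males, and the groups overlapped in both sexes. Psmd11 log2 fold change was 0.21 ± 0.15 (SE) in males (edgeR adjusted p = 0.70) and -0.26 ± 0.15 in females (adjusted p = 0.34), and 0.14 and -0.22 with both libraries left out. Psmd6, also of the lid, was at 54.4, 78.6, 53.8 and 71.9 CPM in male CRE-, 59.3, 78.5, 67.00 and 73.6 in male LKO, 71.5, 76.1, 73.3 and 75.4 in female CRE- and 55.5, 58.6, 55.4 and 70.6 in female LKO mice. All female LKO livers were below all female CRE- livers, narrowly for LKO replicate 4, and males overlapped. Psmd6 log2 fold change was 0.11 ± 0.16 (SE) in males (edgeR adjusted p = 0.86) and -0.30 ± 0.16 in females (adjusted p = 0.28), and 0.018 and -0.25 with both libraries left out.

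Psmd14, the enzyme that removes ubiquitin chains before degradation, was at 42.1, 54.2, 28.2 and 48.9 CPM in male CRE-, 37.8, 44.5, 42.6 and 48.1 in male LKO, 46.2, 53.7, 50.5 and 46.5 in female CRE- and 26.9, 40.2, 38.9 and 49.3 in female LKO mice. Among female LKO livers replicate 4 lay within the CRE- range and the other 3 below it, and males overlapped. Psmd14 log2 fold change was -0.0035 ± 0.20 (SE) in males (edgeR adjusted p = 0.998) and -0.34 ± 0.20 in females (adjusted p = 0.35), and -0.17 and -0.18 with both libraries left out. Psmd8, a lid subunit and the most abundant non-ATPase per length, was at 75.1, 116, 92.7 and 119 CPM in male CRE-, 117, 115, 100.1 and 116 in male LKO, 96.9, 113, 111 and 138 in female CRE- and 102, 113, 102 and 206 in female LKO mice. The value of female LKO replicate 4 was far above that of every other liver, while the rest of its group lay within the CRE- range and males overlapped. Psmd8 log2 fold change was 0.16 ± 0.22 (SE) in males (edgeR adjusted p = 0.86) and 0.19 ± 0.22 in females (adjusted p = 0.69), and 0.11 and 0.31 with both libraries left out. Its female value was -0.12 without that 1 library.

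Psmd1, the large scaffold of the base, is described here after its values were seen, because it was high in the libraries that stood apart, where most subunits were low. It was at 115, 164, 195 and 126 CPM in male CRE-, 104, 136, 130.4 and 123 in male LKO, 148, 150.4, 146 and 155 in female CRE- and 192, 108, 100.3 and 115 in female LKO mice. The highest values of all were those of male CRE- replicate 3 and female LKO replicate 1, and the other female LKO livers lay below all female CRE- livers. Its annotated length is 3256 bases, and longer subunits were mixed in these libraries. Psma3, at 3300 bases, was low in both. Psmd2 (3417 bases) was at 195 and 187 CPM there, the latter the highest of its group. Psme4 (7649 bases) was at 144 and 105 CPM, each the highest of its group. Psmf1 (3751 bases) was at 24.3 and 20.3 CPM, the latter the lowest of its group. Psme3 (4118 bases) was at 39.4 and 51.2 CPM, the former the lowest of its group. The part of length in these values was not tested. Psmd1 log2 fold change was -0.28 ± 0.21 (SE) in males (edgeR adjusted p = 0.71) and -0.22 ± 0.21 in females (adjusted p = 0.60), and -0.14 and -0.46 with both libraries left out (edgeR adjusted p in females then = 0.11).

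The assembly factors hold subunits in place while the particle is built and leave the finished enzyme. Their median log2 fold change was 0.22 in males and -0.26 in females, and 0.033 and -0.15 with both libraries left out. Psmd5, a chaperone that binds an ATPase of the base until the cap meets the core, was at 24.4, 39.2, 25.6 and 27.8 CPM in male CRE-, 37.6, 36.7, 30.8 and 32.8 in male LKO, 33.8, 42.01, 41.2 and 42.8 in female CRE- and 23.7, 30.8, 27.99 and 35.1 in female LKO mice. In females only LKO replicate 4 reached the CRE- range, through the low CRE- replicate 1, and in males the groups overlapped. Psmd5 log2 fold change was 0.24 ± 0.17 (SE) in males (edgeR adjusted p = 0.70) and -0.44 ± 0.17 in females (adjusted p = 0.14), and 0.17 and -0.33 with both libraries left out. It had the smallest interaction p of the 48, with a female effect minus male effect of -0.68 ± 0.24 (edgeR adjusted p = 0.22), and with limma-voom and sample weights its female value passed the threshold. Psmd10, also known as gankyrin and another base chaperone, was at 10.5, 12.3, 6.45 and 12.9 CPM in male CRE-, 13.5, 12.8, 11.2 and 11.7 in male LKO, 11.7, 13.6, 14.5 and 15.1 in female CRE- and 13.4, 11.7, 12.5 and 17.01 in female LKO mice. The groups overlapped in both sexes. Psmd10 log2 fold change was 0.22 ± 0.20 (SE) in males (edgeR adjusted p = 0.77) and -0.0041 ± 0.20 in females (adjusted p = 0.995), and 0.033 and 0.026 with both libraries left out.

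Psmg1 pairs with Psmg2 to seed the outer ring of the core. Psmg1 was at 16.2, 23.1, 13.8 and 22.9 CPM in male CRE-, 20.3, 18.9, 18.7 and 22.4 in male LKO, 20.1, 20.9, 21.3 and 29.4 in female CRE- and 14.3, 17.7, 17.4 and 17.4 in female LKO mice. Every female LKO liver was below every female CRE- liver, with the widest gaps at LKO replicate 1 below and CRE- replicate 4 above. Psmg1 log2 fold change was 0.078 ± 0.18 (SE) in males (edgeR adjusted p = 0.92) and -0.46 ± 0.18 in females (adjusted p = 0.16), and -0.058 and -0.37 with both libraries left out. The female value was -0.30 without CRE- replicate 4 (edgeR adjusted p = 0.42), and over the alternatives run its adjusted p was 0.11 to 0.42. Psmg2 was at 10.02, 11.9, 7.18 and 13.7 CPM in male CRE-, 12.1, 12.4, 11.5 and 12.9 in male LKO, 10.6, 11.7, 11.7 and 14.8 in female CRE- and 8.06, 10.3, 10.4 and 11.7 in female LKO mice. In females LKO replicate 4 exceeded 3 of the CRE- livers, the other LKO livers lay below all of them, and males overlapped. Psmg2 log2 fold change was 0.19 ± 0.19 (SE) in males (edgeR adjusted p = 0.79) and -0.26 ± 0.19 in females (adjusted p = 0.47), and 0.031 and -0.15 with both libraries left out. Psmg4, which acts with Psmg3 on the same ring, was at 5.88, 6.77, 3.85 and 8.32 CPM in male CRE-, 8.18, 8.16, 6.16 and 8.86 in male LKO, 6.96, 8.41, 7.33 and 10.2 in female CRE- and 5.11, 11.1, 10.1 and 9.89 in female LKO mice. Among female LKO livers replicates 2 to 4 were at the upper end of the CRE- range or above and replicate 1 below it, and males overlapped. Psmg4 log2 fold change was 0.34 ± 0.26 (SE) in males (edgeR adjusted p = 0.72) and 0.14 ± 0.26 in females (adjusted p = 0.81), and 0.15 and 0.35 with both libraries left out. Over single libraries left out, it was 0.15 to 0.51 in males and 0.025 to 0.35 in females.

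Other activators and PI31 had median log2 fold changes of 0.24 in males and -0.14 in females, and 0.053 and -0.066 with both libraries left out. Psme1 was at 126, 125, 48.3 and 159 CPM in male CRE-, 177, 129, 119 and 133 in male LKO, 119.7, 131, 147 and 212 in female CRE- and 80.6, 142, 143 and 138 in female LKO mice. Its highest livers were female CRE- replicate 4 and male LKO replicate 1, and the groups overlapped. Psme1 log2 fold change was 0.28 ± 0.30 (SE) in males (edgeR adjusted p = 0.80) and -0.28 ± 0.30 in females (adjusted p = 0.65), and 0.013 and -0.092 with both libraries left out. Its partner Psme2 was at 83.3, 89.00, 42.9 and 108 CPM in male CRE-, 107, 94.2, 88.4 and 97.7 in male LKO, 102, 97.97, 107 and 157 in female CRE- and 77.2, 107, 108 and 89.4 in female LKO mice. Again 1 liver, female CRE- replicate 4, stood above all others, and the groups overlapped. Psme2 log2 fold change was 0.26 ± 0.23 (SE) in males (edgeR adjusted p = 0.76) and -0.28 ± 0.23 in females (adjusted p = 0.54), and 0.041 and -0.17 with both libraries left out. Over single libraries left out, Psme2 was 0.036 to 0.43 in males and -0.35 to -0.078 in females. Psme1 was then 0.0080 to 0.48 in males and -0.38 to -0.051 in females. Psme2b, a near-identical copy of Psme2, was at 3.96, 4.57, 2.37 and 3.64 CPM in male CRE-, 6.38, 4.21, 4.45 and 3.89 in male LKO, 3.48, 3.82, 4.69 and 6.79 in female CRE- and 5.51, 4.66, 5.19 and 5.44 in female LKO mice. The groups overlapped in both sexes. Reads that map to both copies were not counted and its exons overlap another gene on the same strand, so these low values are uncertain. Psme2b log2 fold change was 0.38 ± 0.26 (SE) in males (edgeR adjusted p = 0.68) and 0.15 ± 0.26 in females (adjusted p = 0.79), and 0.21 and 0.14 with both libraries left out. With each library left out in turn it was 0.19 to 0.51 in males and 0.028 to 0.40 in females.

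Psma8 was at 0.284, 1.96, 0.988 and 1.80 CPM in male CRE-, 0.592, 0.750, 1.24 and 0.918 in male LKO, 0.932, 1.64, 1.77 and 0.481 in female CRE- and 0.403, 1.05, 1.99 and 0.694 in female LKO mice. Values differed by several fold within groups at this low level, and the groups overlapped. Psma8 log2 fold change was -0.52 ± 0.58 (SE) in males (edgeR adjusted p = 0.81) and -0.21 ± 0.58 in females (adjusted p = 0.88), and -0.62 and 0.084 with both libraries left out.

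The high values of the immunoproteasome subunits were in a few livers of different groups. The median deviation of these 3 genes was lowest in male CRE- replicate 3 and highest in female CRE- replicate 4, at -1.02 and 0.83, as it was for the constitutive core, at -0.94 and 0.46. Psmb8 and Psmb9 lie on either side of Tap1, the peptide transporter gene, in the major histocompatibility region, at chr17:34417169-34420428 (+ strand) and chr17:34401006-34406347 (- strand) of GRCm39, and Psmb10 lies at chr8:106662360-106665024 (- strand). Psmb8, which takes the chymotrypsin-like position, was at 65.1, 39.8, 28.00 and 95.9 CPM in male CRE-, 64.4, 49.99, 47.4 and 42.7 in male LKO, 65.98, 37.1, 47.3 and 101 in female CRE- and 93.1, 48.5, 84.7 and 55.6 in female LKO mice. High values were found in the replicate 4 of each CRE- group and in female LKO replicates 1 and 3, and the groups overlapped in both sexes. Psmb8 log2 fold change was -0.16 ± 0.36 (SE) in males (edgeR adjusted p = 0.91) and 0.17 ± 0.36 in females (adjusted p = 0.84), and -0.40 and 0.024 with both libraries left out. Its male value turned to 0.21 without male CRE- replicate 4, and its female value to -0.017 without female CRE- replicate 2.

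Psmb9, which replaces the caspase-like subunit, was at 40.9, 16.9, 15.3 and 47.6 CPM in male CRE-, 21.8, 21.7, 13.5 and 17.9 in male LKO, 25.02, 18.2, 21.3 and 47.6 in female CRE- and 22.7, 18.2, 37.00 and 24.6 in female LKO mice. Male CRE- replicates 1 and 4, female CRE- replicate 4 and female LKO replicate 3 were high, and all 4 male LKO livers lay below them near the lower CRE- values, with LKO replicate 3 the lowest of all 16. Psmb9 log2 fold change was -0.69 ± 0.37 (SE) in males (edgeR adjusted p = 0.58) and -0.13 ± 0.37 in females (adjusted p = 0.89), and -0.92 and -0.052 with both libraries left out. The male value was -0.38 without CRE- replicate 4 and -0.93 without CRE- replicate 3, and the female value turned to 0.27 without CRE- replicate 4 and 0.0065 without LKO replicate 2.

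Psmb10, which takes the trypsin-like position, was at 47.1, 40.9, 19.3 and 61.02 CPM in male CRE-, 56.8, 50.9, 34.98 and 43.2 in male LKO, 54.4, 41.2, 53.3 and 80.9 in female CRE- and 46.2, 58.4, 68.9 and 59.1 in female LKO mice. The highest liver was female CRE- replicate 4 and the lowest male CRE- replicate 3, and the groups overlapped in both sexes. Psmb10 log2 fold change was 0.14 ± 0.28 (SE) in males (edgeR adjusted p = 0.90) and 0.018 ± 0.28 in females (adjusted p = 0.98), and -0.11 and 0.13 with both libraries left out. Without male CRE- replicate 3 its male value turned to -0.11, and its female value was between -0.11 and -0.018 without female CRE- replicate 2 or 3 or female LKO replicate 3 and -0.0087 without female CRE- replicate 1. Over the 3 genes the sex difference in the LKO effect was not called by edgeR, with adjusted p of 0.77 for Psmb8, 0.59 for Psmb9 and 0.90 for Psmb10.

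**Figure D3:**
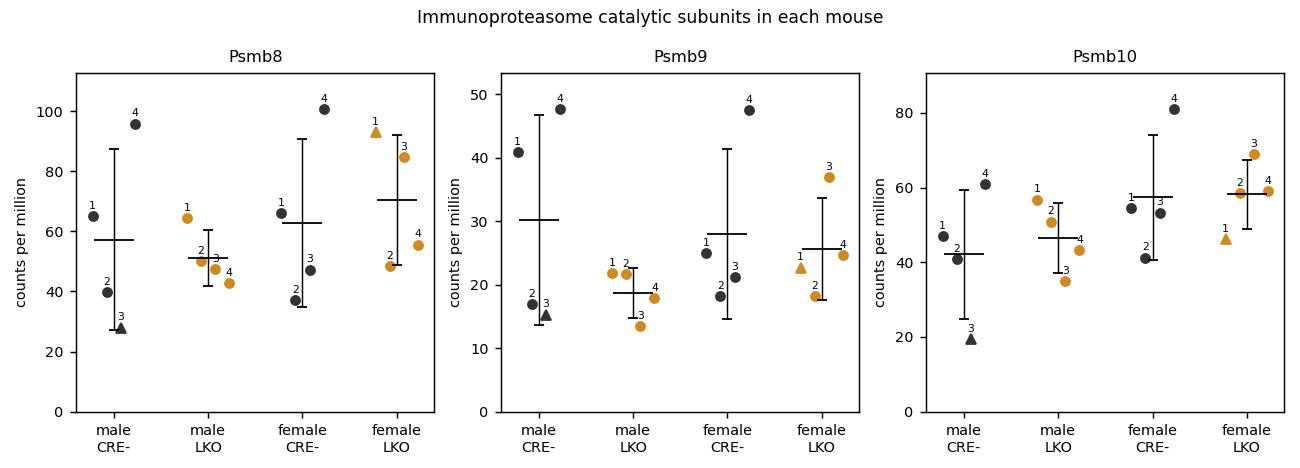
CPM of Psmb8, Psmb9 and Psmb10 in each of 16 livers, with CRE- in black and LKO in orange, the replicate number above each point, triangles for the 2 libraries that stood apart, and bars for the mean and SD of 4 mice. Female CRE- replicate 4 is at or near the top for all 3 genes, at 101, 47.6 and 80.9 CPM, and the groups overlap.

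The mRNA of each immune subunit was set per liver against that of the constitutive subunit whose place it takes, as a ratio of RPKM. These ratios mix the cell types of whole liver and rest on annotated lengths. They do not measure the balance of the assembled forms. Psmb8 over Psmb5 was 0.881, 0.400, 0.560 and 1.04 in male CRE-, 0.699, 0.515, 0.568 and 0.396 in male LKO, 0.895, 0.387, 0.498 and 0.833 in female CRE- and 1.74, 0.538, 1.04 and 0.584 in female LKO mice. The ratio was highest in female LKO replicate 1, where Psmb5 was among the lowest, and CRE- and LKO livers overlapped in both sexes. Means were 0.719 ± 0.291 in male CRE- mice, 0.545 ± 0.126 in male LKO mice, 0.653 ± 0.249 in female CRE- mice and 0.975 ± 0.558 in female LKO mice (SD, n = 4). All ratio means include both libraries that stood apart, so the 1.74 of replicate 1 is part of this female LKO mean. The other female LKO livers were at 0.538, 1.04 and 0.584. Psmb9 over Psmb6 was 0.368, 0.112, 0.204 and 0.348 in male CRE-, 0.168, 0.144, 0.103 and 0.112 in male LKO, 0.191, 0.120, 0.130 and 0.224 in female CRE- and 0.231, 0.115, 0.287 and 0.190 in female LKO mice. The highest were male CRE- replicates 1 and 4, and all male LKO livers were below male CRE- replicate 3 but overlapped replicate 2. Means here were 0.258 ± 0.122 in male CRE- mice, 0.132 ± 0.0299 in male LKO mice, 0.166 ± 0.0492 in female CRE- mice and 0.206 ± 0.0724 in female LKO mice. Psmb10 over Psmb7 was 0.392, 0.204, 0.170 and 0.352 in male CRE-, 0.377, 0.268, 0.205 and 0.213 in male LKO, 0.365, 0.222, 0.267 and 0.364 in female CRE- and 0.391, 0.324, 0.464 and 0.351 in female LKO mice. Female LKO replicate 3 was the highest and male CRE- replicate 3 the lowest, with overlap in both sexes, and means were 0.280 ± 0.109 in male CRE- mice, 0.266 ± 0.0793 in male LKO mice, 0.304 ± 0.0715 in female CRE- mice and 0.382 ± 0.0608 in female LKO mice. For every pair the mRNA of the constitutive subunit exceeded that of the immune one per length in most livers. The exceptions were Psmb8 over Psmb5 in male CRE- replicate 4 and female LKO replicates 1 and 3.

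Genes of class I presentation and those induced by interferon gamma are given beside the immunoproteasome. Of 10 class I genes, 0 passed the adjusted threshold by edgeR, DESeq2 or limma-voom in either sex. At an unadjusted p under 0.05 edgeR had 1 of them, lower, in males (4.74% of all genes) and 0 in females. B2m, the light chain of class I molecules, was the most abundant at 1965 RPKM. Tap1 was at 63.1, 23.7, 31.04 and 71.8 CPM in male CRE-, 40.6, 29.4, 36.5 and 26.6 in male LKO, 38.1, 26.6, 27.7 and 55.4 in female CRE- and 76.2, 29.8, 45.6 and 36.2 in female LKO mice. Its highest livers were female LKO replicate 1, male CRE- replicates 1 and 4 and female CRE- replicate 4, which all but the first match the high Psmb9 livers. Tap1 log2 fold change was -0.51 ± 0.36 (SE) in males (edgeR adjusted p = 0.69) and 0.35 ± 0.36 in females (adjusted p = 0.63), and -0.68 and 0.029 with both libraries left out. With each library left out in turn it was -0.73 to -0.24 in males and 0.029 to 0.61 in females.

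Nlrc5, a transactivator of class I genes and the member at an unadjusted p under 0.05 in males, was at 65.6, 19.05, 48.7 and 28.7 CPM in male CRE-, 29.02, 19.97, 19.7 and 20.96 in male LKO, 35.02, 15.9, 22.3 and 12.7 in female CRE- and 30.8, 34.1, 32.1 and 21.4 in female LKO mice. Male CRE- replicates 1 and 3 were high, the other males were lower, and the groups overlapped. Nlrc5 log2 fold change was -0.85 ± 0.35 (SE) in males (edgeR adjusted p = 0.42) and 0.46 ± 0.34 in females (adjusted p = 0.48), and -0.77 and 0.46 with both libraries left out. With each library left out in turn it was -1.09 to -0.53 in males and 0.29 to 0.80 in females, with the value nearest 0 without CRE- replicate 1 in males and without CRE- replicate 4 in females. For H2-K1, a class I heavy chain, the log2 fold change was -0.32 ± 0.25 (SE) in males (edgeR adjusted p = 0.72) and -0.40 ± 0.25 in females (adjusted p = 0.39), and -0.54 and -0.26 with both libraries left out, and for B2m 0.028 ± 0.29 (SE) in males (edgeR adjusted p = 0.99) and -0.42 ± 0.29 in females (adjusted p = 0.43), and -0.21 and -0.23 with both libraries left out. Over single libraries left out, H2-K1 was -0.55 to -0.11 in males and -0.47 to -0.23 in females. B2m was then -0.21 to 0.28 in males and -0.58 to -0.23 in females.

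Of 13 interferon gamma response genes analysed, edgeR called 0 in either sex, with 0 at an unadjusted p under 0.05 in males and 2 higher in females, the receptor chains Ifngr1 and Ifngr2. A further gene planned for this list was not part of these counts. DESeq2 called 2 and limma-voom 3 in females, all higher, and 0 in males. Over all genes in females, 12.3% were higher at that unadjusted level. DESeq2 and limma-voom called 10.8% and 11.8% of all genes in either direction. Iigp1, an immunity-related GTPase, was the most abundant at 85.6 RPKM, and Ifng itself stayed below 1 CPM in all livers. Ifngr2 was at 19.8, 18.2, 28.7 and 27.01 CPM in male CRE-, 25.1, 19.5, 18.8 and 22.5 in male LKO, 16.9, 18.8, 17.7 and 27.05 in female CRE- and 47.1, 22.2, 29.6 and 33.4 in female LKO mice. The highest liver was female LKO replicate 1, and LKO replicate 2 lay within the CRE- range. Its log2 fold change was -0.13 ± 0.23 (SE) in males (edgeR adjusted p = 0.89) and 0.72 ± 0.23 in females (adjusted p = 0.081), and -0.025 and 0.52 with both libraries left out. Without female LKO replicate 2 its female value was 0.87 and passed the threshold (edgeR adjusted p = 0.030), as it did with DESeq2 and limma-voom, and over the alternatives run its adjusted p was 0.024 to 0.24. The log2 fold change of Ifngr1 was 0.073 ± 0.24 (SE) in males (edgeR adjusted p = 0.95) and 0.75 ± 0.24 in females (adjusted p = 0.084), and -0.057 and 0.85 with both libraries left out. In females it passed the threshold with the replicate number as a block (edgeR adjusted p = 0.030), with the length trend removed (adjusted p = 0.041), with both (0.013), and with DESeq2 (0.041) and limma-voom (0.015), and over the alternatives run its adjusted p was 0.013 to 0.23. For Irf8, a factor of myeloid cells, the log2 fold change was -0.21 ± 0.38 (SE) in males (edgeR adjusted p = 0.89) and 0.65 ± 0.38 in females (adjusted p = 0.35), and -0.40 and 0.33 with both libraries left out. With each library left out in turn it was -0.40 to 0.088 in males and 0.32 to 1.10 in females, and the male value was above 0 only without male CRE- replicate 4.

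Leukocyte markers, which bear on the immunoproteasome because blood cells carry it, differed between livers as well. The 6 pan-leukocyte markers summed to 303, 207, 222 and 369 CPM in male CRE-, 367, 226, 239 and 189 in male LKO, 262, 189.9, 204 and 377 in female CRE- and 1082, 277, 420.3 and 411 in female LKO mice, led per length by Lcp1. The sum in female LKO replicate 1 was far above the rest. The 10 macrophage and Kupffer markers summed to 877, 459, 247 and 1321 CPM in male CRE-, 1248, 652, 704 and 671 in male LKO, 801, 587, 641 and 1316 in female CRE- and 3559, 965, 2354 and 1535 in female LKO mice, led by C1qa. In this list female LKO replicates 1, 3 and 4 were the highest, followed by the replicate 4 of each CRE- group. The 10 T and NK cell markers summed to 23.8, 7.78, 7.64 and 28.9 CPM in male CRE-, 30.8, 16.4, 13.3 and 8.54 in male LKO, 23.8, 10.1, 14.1 and 31.97 in female CRE- and 36.5, 20.7, 33.8 and 20.1 in female LKO mice, led by Nkg7. The high livers here were female LKO replicates 1 and 3, female CRE- replicate 4, male LKO replicate 1 and male CRE- replicate 4, a set that overlaps the high Psmb8 livers. Those high Psmb8 livers were also among the highest in the pan-leukocyte and macrophage lists.

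The 6 neutrophil markers summed to 72.4, 20.2, 15.9 and 131 CPM in male CRE-, 26.8, 16.3, 12.7 and 12.5 in male LKO, 35.6, 20.1, 16.5 and 16.5 in female CRE- and 106, 43.4, 58.2 and 496 in female LKO mice, led by S100a9, with female LKO replicate 4 far above all others. In females edgeR called 1 macrophage and 1 neutrophil marker, both higher in LKO, 0 pan-leukocyte and 0 T and NK markers (4.24% of all genes). At an unadjusted p under 0.05 all 6 pan-leukocyte, 8 of 10 macrophage, 5 of 5 tested neutrophil and 1 of 10 T and NK markers were higher (12.3% of all genes). DESeq2 called 2 pan-leukocyte, 6 macrophage, 5 neutrophil and 0 T and NK markers (10.8% of all genes), and limma-voom 4, 9, 3 and 1 (11.8%). With both libraries that stood apart left out, edgeR called 2 neutrophil markers and 0 of the other lists (2.13% of all genes). In males the 3 tools called 0 of these markers. At an unadjusted p under 0.05 edgeR had 4 of 5 neutrophil markers lower and 0 of the others (4.74% of all genes lower). No marker of these lists was at 0 in all livers. The part of leukocyte content in the immunoproteasome values was not tested.

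The other lists of cell markers covered B and plasma cells (22.5 to 133 CPM summed over 6 genes, led per length by Jchain), endothelium (149 to 363, 6 genes, Clec4g), cholangiocytes (43.6 to 146, 5 genes, Spp1), stellate cells and fibroblasts (231 to 396, 6 genes, Dcn) and proliferation (5.08 to 80.8, 6 genes, Top2a). In females edgeR called 5 of 6 proliferation markers and 1 endothelial marker, all higher in LKO, and 0 of the others, with 6, 3, 1, 0 and 0 higher at an unadjusted p under 0.05 among proliferation, endothelial, B and plasma, cholangiocyte and stellate markers. Over all genes in females, 4.24% were called and 12.3% were higher at that unadjusted level. DESeq2 called 6 proliferation and 2 endothelial markers (10.8% of all genes), and limma-voom 5, 1 and, in the lower direction, 1 stellate marker (11.8%). With both libraries left out edgeR called 0 proliferation markers and 1 endothelial one (2.13% of all genes). In males 0 genes of these lists were called by the 3 tools, with 1 stellate marker lower and 0 others at an unadjusted p under 0.05 in edgeR (4.74% of all genes lower).

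Of 17 listed partner proteins of the proteasome and ubiquitin shuttles, 16 were in the table and Paaf1 was not analysed here. EdgeR called 0 in either sex, DESeq2 1 in males, Zfand5, which was higher in LKO (2.03% of all genes), and limma-voom 0. In edgeR those with an unadjusted p under 0.05 were 2 in males and 1 in females, all higher (4.79% and 12.3% of all genes). Their median log2 fold change was 0.095 in males and -0.21 in females. Pomp, the chaperone that matures the core, was the most abundant at 132 RPKM. Zfand5, a stress-induced activator of the proteasome, was at 50.5, 43.7, 42.4 and 45.8 CPM in male CRE-, 72.9, 62.2, 66.2 and 65.2 in male LKO, 42.9, 58.7, 59.3 and 49.3 in female CRE- and 59.8, 48.9, 46.3 and 68.3 in female LKO mice. All male LKO livers were above all male CRE- livers, and females overlapped. Zfand5 log2 fold change was 0.55 ± 0.15 (SE) in males (edgeR adjusted p = 0.17) and 0.087 ± 0.15 in females (adjusted p = 0.80), and 0.50 and 0.076 with both libraries left out.

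Of 8 genes analysed for ubiquitin, its activating enzymes and the p97 unfoldase, edgeR, DESeq2 and limma-voom called 0 in either sex. At an unadjusted p under 0.05 in edgeR, 1 was higher in males (4.79% of all genes) and 0 in females. A further gene planned for this list was not part of these counts. Rps27a, a fusion of ubiquitin to a ribosomal protein, was the most abundant of the 8 at 317 RPKM, and was at 166, 202, 119 and 270.0 CPM in male CRE-, 396, 282, 219.9 and 279.6 in male LKO, 241, 261, 302 and 265 in female CRE- and 205, 282, 313 and 360.1 in female LKO mice. Male CRE- replicate 4 overlapped the LKO range and the other CRE- livers lay below it. Rps27a log2 fold change was 0.63 ± 0.25 (SE) in males (edgeR adjusted p = 0.39) and 0.12 ± 0.24 in females (adjusted p = 0.83), and 0.45 and 0.28 with both libraries left out. With each library left out in turn it was 0.44 to 0.86 in males and 0.0059 to 0.28 in females.

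The transcription factor encoded by Nfe2l1 raises proteasome genes when proteasome activity is lacking. It first passes through the endoplasmic reticulum, and Ngly1, Ddi2, Syvn1 and Sel1l take part in its processing or turnover. Of these genes and Nfe2l2, 6 in all, edgeR, DESeq2 and limma-voom called 0 in either sex, and 0 had an unadjusted p under 0.05 in edgeR. Nfe2l1 was the most abundant at 29.5 RPKM, and was at 120.3, 167, 156 and 134 CPM in male CRE-, 133, 164, 175 and 175 in male LKO, 156, 164, 139.8 and 139 in female CRE- and 244, 148, 144 and 135 in female LKO mice. Its highest liver was female LKO replicate 1 and the other female LKO livers lay within or just below the CRE- range. Nfe2l2, which encodes a related factor of the oxidative stress response, had the smallest p of the list and a log2 fold change of 0.30 ± 0.16 (SE) in males (edgeR adjusted p = 0.57) and 0.16 ± 0.16 in females (adjusted p = 0.61), and 0.26 and 0.27 with both libraries left out.

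Promoter letters were searched in the 250 bases before each annotated start, from RefSeq on build GRCm38.p6, since core subunits moved together over the livers and Psmb9 and Tap1 shared high livers. A promoter was matched for 41 of 49 members, with 8 without an entry, giving 44 entries with alternative starts, and both strands were read. TGAC and GC with any 3 bases between, the core of the antioxidant response element that Nfe2l1 and Nfe2l2 bind, was in 5 of 44 subunit promoters (11.4%) and 3338 of 32851 promoters in all (10.2%). CCAAT, the box of NF-Y, was in 14 of 44 subunit promoters (31.8%) and 11120 of 32851 promoters in all (33.8%). TTC and GAA with any 3 bases between, the gamma-activated site or GAS, was in 2 of 44 subunit promoters (4.55%) and 2306 of 32851 promoters in all (7.02%). GAAA, any 2 bases and GAAA, a form of the interferon-stimulated response element, was in 3 of 44 subunit promoters (6.82%) and 978 of 32851 promoters in all (2.98%). GGG and CC with any 5 bases between, an NF-kB-like sequence, was in 24 of 44 subunit promoters (54.5%) and 15046 of 32851 promoters in all (45.8%). The GAS letters were in Psmb8 and Psmg1, and the antioxidant response letters in Psmb5, Psmb6, Psmc6, Psmd9 and Psmd12. A match is a description of letters and shows no binding.

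The promoters of immune Psmb8 and Psmb9, the latter shared with Tap1, and of the constitutive Psmb5 and Psmb6 whose places they take are shown in 5′ to 3′ direction of each Psm gene. The region of Psmb8, chr17:34197945-34198194 on the + strand, has the GAS letters in capitals. That of Psmb9, chr17:34187331-34187555 on the - strand, was taken only as far as the annotated start of Tap1 on the opposite strand, 225 bases away, and a reversed CCAAT is in capitals. Psmb5, chr14:54617996-54618245 on the - strand, and Psmb6, chr11:70525107-70525356 on the + strand, have the antioxidant response letters in capitals. The NF-kB-like letters, also found in the windows of Psmb9 and Psmb6, are not marked. Psmb10 held none of the 5 sets of letters.
Psmb8: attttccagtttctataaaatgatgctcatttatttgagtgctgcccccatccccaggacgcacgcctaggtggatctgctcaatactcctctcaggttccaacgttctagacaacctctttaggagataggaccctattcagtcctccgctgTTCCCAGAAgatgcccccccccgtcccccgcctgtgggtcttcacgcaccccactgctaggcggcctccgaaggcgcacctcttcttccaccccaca
Psmb9: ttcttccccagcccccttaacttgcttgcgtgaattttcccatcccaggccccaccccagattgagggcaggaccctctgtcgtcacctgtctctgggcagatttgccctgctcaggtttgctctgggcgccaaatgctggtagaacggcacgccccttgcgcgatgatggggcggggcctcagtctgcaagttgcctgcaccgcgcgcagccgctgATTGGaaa
Psmb5: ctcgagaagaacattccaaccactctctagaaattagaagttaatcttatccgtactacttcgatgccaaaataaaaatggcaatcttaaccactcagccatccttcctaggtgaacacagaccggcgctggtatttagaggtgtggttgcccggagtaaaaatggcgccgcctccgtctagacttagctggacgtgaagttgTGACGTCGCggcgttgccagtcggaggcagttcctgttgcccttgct
Psmb6: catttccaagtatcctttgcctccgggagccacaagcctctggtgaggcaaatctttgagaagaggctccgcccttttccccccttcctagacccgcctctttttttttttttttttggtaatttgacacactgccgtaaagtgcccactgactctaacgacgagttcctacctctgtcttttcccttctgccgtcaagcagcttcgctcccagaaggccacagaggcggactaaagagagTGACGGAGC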

How the data were processed

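Whole-liver mRNA of 16 mice was sequenced. The authors aligned reads with STAR 2.7.1a and counted them per gene with featureCounts of Subread 2.0.6 in stranded mode, per the file headers and the submitters' processing notes, on GRCm39. The deposited values are whole-number counts of single reads, both mates of a pair counted apart and multi-mapped reads left out. The Length column, a summed exon length in bases in other units than the counts, was deposited by the authors with them. Genes were kept by filterByExpr (minimum count 10), scaled by TMM and tested with the quasi-likelihood test of edgeR 4.0.16 in R 4.3.3, in 1 fit of the 4 groups of sex and genotype, with Benjamini-Hochberg adjustment over 16742 genes and a threshold of 0.05. Fold changes are LKO over CRE-, and the interaction is the female minus the male effect. The method was tested on simulated data. Alternatives were DESeq2 1.42.0, limma-voom (limma 3.58.1) with sample weights, each sex alone, RLE and upper-quartile scaling, no and stricter filters, the replicate number as a block, a loess trend on gene length removed per library, a threshold of 0.01, and each library left out. Members and lists were chosen with earlier results of these data known. Genes were named by a rule: the immunoproteasome subunits, any called member, and of each role the smallest p in males and in females and the highest and lowest level per length; of other lists, the most abundant gene and up to 4 with the smallest p. Other genes are said to be chosen after their values were seen. The 2 libraries that stood apart were also left out together, which was chosen after seeing the data. The SE is the log2 fold change over the square root of its F statistic. Counting error aside, PCR copies of reads are not independent molecules.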

Additional observations from a re-analysis of the deposited data

Results flagged for a closer look

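Among 192 groups of 4 livers (48 subunits in 4 groups), 15 held a liver far from the other 3, by Dixon's gap test on log2 CPM. Chance alone gives about 1 in 20 groups, and subunits vary together, so these are not independent. In female LKO replicate 1 the values were 47.2 CPM for Psma2 against 80.8 to 86.5 in the other 3, 29.1 CPM for Psmb2 against 51.1 to 55.3 in the other 3, 43.7 CPM for Psmb3 against 82.5 to 92.9 in the other 3, 80.6 CPM for Psme1 against 138 to 143 in the other 3, 20.3 CPM for Psmf1 against 27.5 to 27.97 in the other 3, 14.3 CPM for Psmg1 against 17.4 to 17.7 in the other 3 and 5.11 CPM for Psmg4 against 9.89 to 11.1 in the other 3. In female CRE- replicate 4 the values were 185 CPM for Psmc3 against 120.0 to 126 in the other 3, 115 CPM for Psmc5 against 79.1 to 81.7 in the other 3 and 29.4 CPM for Psmg1 against 20.1 to 21.3 in the other 3. In female LKO replicate 4 the values were 206 CPM for Psmd8 against 102 to 113 in the other 3 and 66.4 CPM for Psme3 against 50.4 to 51.2 in the other 3. Single subunits stood apart elsewhere: Psmb3 at 35.00 CPM in male CRE- replicate 3 against 72.5 to 82.9 in the other 3, Psmd8 at 100.1 CPM in male LKO replicate 3 against 115 to 117 in the other 3 and Psmd5 at 33.8 CPM in female CRE- replicate 1 against 41.2 to 42.8 in the other 3. Of the 15, 7 were low values of female LKO replicate 1, 1 of the 2 libraries low for short genes, and 3 were high values of female CRE- replicate 4. Why these livers differ was not tested.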

How the results depend on the processing

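Proteasome subunits called numbered 0 in both sexes and in the interaction under the alternatives run, leaving out each library in turn included, with 1 exception: limma-voom with sample weights called 1 in females, Psmd5, where it called 11.8% of all genes. The count of all genes called in males, 76 as reported, was 339 by DESeq2, 148 by limma-voom and 22 at an adjusted p under 0.01, and 26 to 111 with each library left out in turn. In females, 710 became 1809 by DESeq2, 1976 by limma-voom, 119 with each sex fitted alone, 1244 with a replicate block, 1203 with the length trend removed, 1920 with both of these, 51 at 0.01, 361 without the 2 libraries that stood apart, a setting chosen after seeing the data, and 87 to 1310 with each library left out. For the interaction, 0 became 371 by DESeq2, 29 by limma-voom, 12 with no filter, 108 with block and length trend, and 0 to 14 with each library left out.

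Subunits at an unadjusted p under 0.05 in males, with the share of all genes under the same setting in brackets, numbered 0 (9.53%) as reported, 1 (10.5%) with the block, 1 (9.55%) with the length trend removed, 2 (10.3%) with both, 4 (13.5%) by limma-voom, 1 (8.82%) without the 2 libraries and 0 to 4 (6.62% to 12.6%) with each library left out. In females, 2 (21.4%) became 6 (23.3%), 9 (24.6%), 10 (26.6%) and 10 (27.6%) under the first 4 of these, and 1 to 5 (15.6% to 23.8%) with each library left out. For the interaction, 5 (16%) became 15 (18.6%) with the block, 9 (19.8%) with block and length trend, 12 (21.8%) by limma-voom, 2 (15.1%) with upper-quartile scaling, 2 (12.9%) with no filter, 3 (16.8%) with at least 10 counts in every library, 1 (10.9%) without the 2 libraries and 2 to 14 (11.1% to 19.8%) with each library left out. The median log2 fold change of the 48 kept its sign in all settings, from 0.018 to 0.27 in males, -0.32 to -0.13 in females and -0.50 to -0.16 in the interaction, the last without the 2 libraries.

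Log2 fold changes of named genes changed sign in a part of the settings, all for values smaller than their SE and not called as reported. Psmb8 in males (-0.16 as reported) was -0.41 to 0.21 over single libraries left out. Psmb8 in females (0.17 as reported) was -0.017 to 0.50 over single libraries left out. Psmb9 in females (-0.13 as reported) was 0.026 with block and length trend, 0.35 by limma-voom and -0.36 to 0.27 over single libraries left out. Psmb10 in males (0.14 as reported) was -0.11 without the 2 libraries and -0.11 to 0.38 over single libraries left out. Psmb10 in females (0.018 as reported) was -0.11 to 0.25 over single libraries left out. Psma8 in males (-0.52 as reported) was 0.16 by limma-voom. Psma8 in females (-0.21 as reported) was 0.084 without the 2 libraries and -0.75 to 0.083 over single libraries left out. Psmc2 in males (0.15 as reported) was -0.012 without the 2 libraries and -0.017 to 0.28 over single libraries left out. Psmc1 in males (-0.0076 as reported) was 0.0042 with the block, 0.058 by limma-voom and -0.11 to 0.086 over single libraries left out. Psmd6 in males (0.11 as reported) was -0.10 with the length trend removed and -0.10 with block and length trend. Psmd8 in males (0.16 as reported) was -0.040 with the length trend removed and -0.031 with block and length trend. Psmd8 in females (0.19 as reported) was -0.12 to 0.31 over single libraries left out. Psmd14 in males (-0.0035 as reported) was 0.00053 with upper-quartile scaling, 0.010 with the block and -0.18 to 0.12 over single libraries left out. Psmd10 in females (-0.0041 as reported) was 0.0094 by DESeq2, 0.012 with each sex alone, 0.010 with RLE scaling, 0.033 with upper-quartile scaling, 0.030 with at least 10 counts in every library, 0.069 with the length trend removed, 0.056 with block and length trend, 0.026 without the 2 libraries and -0.12 to 0.063 over single libraries left out. Psmg1 in males (0.078 as reported) was -0.14 with the length trend removed, -0.14 with block and length trend, -0.058 without the 2 libraries and -0.062 to 0.19 over single libraries left out. B2m in males (0.028 as reported) was -0.13 with the length trend removed, -0.13 with block and length trend, -0.025 by limma-voom, -0.21 without the 2 libraries and -0.21 to 0.28 over single libraries left out. Ifngr1 in males (0.073 as reported) was -0.018 with the length trend removed, -0.12 by limma-voom, -0.057 without the 2 libraries and -0.11 to 0.26 over single libraries left out. Irf8 in males (-0.21 as reported) was -0.40 to 0.088 over single libraries left out. Zfand5 in females (0.087 as reported) was -0.062 with the length trend removed, -0.083 with block and length trend, -0.11 by limma-voom and -0.023 to 0.17 over single libraries left out.

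The following tally covers the named genes run through all settings, which Psmd1 and Nfe2l1, among others, were not. Over these genes 1856 values kept direction and side of the threshold, 75 changed sign, 18 lost a call, all of Gcgr in females (each sex alone, upper-quartile scaling, no filter, at least 10 counts in every library, a threshold of 0.01 and 13 of the 16 single libraries left out), and 11 gained one. The gains were those of Psmd5 and Irf8 in females by limma-voom, of Ifngr1 in females by DESeq2, by limma-voom, with the block, with the length trend removed and with both, of Ifngr2 in females by DESeq2, by limma-voom and without female LKO replicate 2, and of Zfand5 in males by DESeq2. The causes of these changes were not tested. The counts are of mRNA from whole liver at 1 age range, carry no unique molecular identifiers and say nothing of protein, assembly or protease activity.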
